A study of Mus musculus with 2 samples.

Results

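The enzymes and the chaperone that fold, hydroxylate and cross-link collagen were followed as 10 genes. They were the lysyl oxidases Lox, Loxl1, Loxl2, Loxl3 and Loxl4, the lysyl hydroxylases Plod1, Plod2 and Plod3, the prolyl hydroxylase subunit P4ha1 and the chaperone Serpinh1. They were chosen by symbol from the 31053 genes counted, and all 10 were found in both libraries. Spatial transcriptomics was run on 2 fresh-frozen sections of the mouse calvaria (the bony roof of the skull), taken 7 days into the repair of a bone defect. In the Blank section no collagen/nHA material had been placed in the defect; in the Col_nHA section it had. The labels give no strain, age or sex, and do not say whether a section came from 1 animal.

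Each group held 1 section, so the differences have no replicate check and no test was run. Ratios compare these 2 libraries. Intervals are exact, at the 95% level, and reflect counting error alone. Barcodes with at least 3667 unique molecular identifiers (UMIs, each a tag of 1 captured RNA molecule) in Blank and 4690 in Col_nHA were kept as spots. This left 2249 spots with a median of 9733 UMIs in Blank, and 2471 spots with a median of 13815 UMIs in Col_nHA. Levels are counts scaled to a common library size over the spots of a section (counts per 1e+06 UMIs, CPM). A spot can hold several cells, and fewer cells of a type and less RNA per cell cannot be told apart in such sums. The bone label held in that 7 of 11 osteoblast markers reached 10 CPM. Their median log2 ratio of Col_nHA over Blank was -0.02, with Bglap at a ratio of 0.404 and Spp1, which macrophages also express, at 5.74. Without Spp1 the markers summed to 1032 CPM in Blank and 626 CPM in Col_nHA, mostly from Bglap and Bglap2. Bglap2 stood at a ratio of 0.429. The others at 10 CPM or more were not lower alike, with Ibsp at 1.97, Sp7 at 1.04, Alpl at 0.988 and Runx2 at 0.952. The sections also held other tissues, and in unequal amounts. Summed skeletal muscle markers were 2.37-fold as high in Col_nHA, fibroblast markers stood at 0.561 of their Blank level, and choroid plexus markers stood at 0.0117 of it. Values without such spots stand beside the counts below, and the part of the fibroblast and osteoblast differences was not tested.

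Collagen chains are modified inside the endoplasmic reticulum before they leave the cell. Prolyl 4-hydroxylase makes the hydroxyproline that keeps the triple helix stable at body temperature, lysyl hydroxylases prepare lysines for glycosylation and cross-linking, and the chaperone encoded by Serpinh1, known as HSP47, binds the folded triple helix on its way out. Outside the cell, lysyl oxidases convert lysine and hydroxylysine to aldehydes, from which the covalent cross-links of collagen and elastin fibres form. Bone matrix owes much of its toughness to these cross-links.

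Promoter sequence was at hand for 5 of the 10 genes, and 3 are shown because they differ in how often they hold the short core of the hypoxia response element. The core was searched as ACGTG or GCGTG on both strands, in windows of 250 bases before to 50 after the start given by RefSeq on GRCm38.p6. The runs below are 5′ to 3′ on the strand of the gene, cover only bases before the annotated gene, and carry the matches in capitals. They are chr10:59323046-59323196 (plus strand) for P4ha1, chr5:136986769-136987018 (plus strand) for Plod3 and chr7:99353240-99353489 (minus strand) for Serpinh1.
P4ha1: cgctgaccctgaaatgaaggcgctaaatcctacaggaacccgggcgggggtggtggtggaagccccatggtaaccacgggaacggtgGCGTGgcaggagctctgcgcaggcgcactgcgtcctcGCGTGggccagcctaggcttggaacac
Plod3: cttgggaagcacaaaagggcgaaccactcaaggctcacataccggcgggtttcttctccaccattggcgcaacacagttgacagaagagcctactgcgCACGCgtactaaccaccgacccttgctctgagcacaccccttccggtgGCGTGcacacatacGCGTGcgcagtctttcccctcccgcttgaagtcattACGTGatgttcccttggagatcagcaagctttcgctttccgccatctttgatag
Serpinh1: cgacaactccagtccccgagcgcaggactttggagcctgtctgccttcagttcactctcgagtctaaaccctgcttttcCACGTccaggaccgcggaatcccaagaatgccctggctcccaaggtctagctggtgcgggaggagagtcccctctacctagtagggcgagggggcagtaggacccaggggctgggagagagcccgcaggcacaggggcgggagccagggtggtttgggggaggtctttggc

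Positions are counted back from the transcript start on which each window is set. For P4ha1 the RefSeq gene span begins upstream of that start, so the run shown ends earlier and leaves out the match nearest to it. The P4ha1 window held 3 matches of the core, 163, 126 and 16 bases before the start. The Plod3 window held 4, at 152, 104, 90 and 54 bases before it. The Serpinh1 window held 1, at 171 bases, the Loxl4 window held 1, and the Plod1 window held 2. Of 32851 promoter windows of the same length, 43.8% held at least 1 match, 8.93% at least 3 and 3.86% at least 4. A match describes the letters and is not a shown binding site, and no test linked the matches to the levels below.

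Of the lysyl oxidases, Lox, which gives the family its name, had 385 CPM in Blank and 468 CPM in Col_nHA, a ratio of Col_nHA over Blank of 1.22 (interval 1.19 to 1.24). Loxl2, an oxidase linked to type IV collagen cross-linking, had 189 CPM in Blank and 296 CPM in Col_nHA, a ratio of 1.56 (1.51 to 1.61). Loxl3, an oxidase needed for palate and spine formation, had 74.4 CPM in Blank and 149.6 CPM in Col_nHA, a ratio of 2.01 (1.92 to 2.11). All 3 were higher in the Col_nHA section, and Loxl3 had the largest ratio of the 10 genes.

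Loxl1, the oxidase best known for elastic fibres, was the exception. Its level was 442 CPM in Blank and 395 CPM in Col_nHA, a ratio of 0.893 (0.873 to 0.914). It was the only gene of the 10 whose interval lay below 1. Loxl4 was close to absent, with 73 UMIs in Blank and 98 in Col_nHA. Its ratio of 1.03 had an interval of 0.7496 to 1.408, so no difference was detectable at this depth.

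The lysyl hydroxylases differed among themselves. Plod1, which acts on lysines of the collagen helix, had 138 CPM in Blank and 143 CPM in Col_nHA, a ratio of 1.03 (0.994 to 1.08). Plod2, the telopeptide lysyl hydroxylase that directs collagen towards hydroxylysine-derived cross-links, had 47.1 CPM in Blank and 65.7 CPM in Col_nHA, a ratio of 1.39 (1.31 to 1.49). Plod3, which also glycosylates hydroxylysine, had 120.0 CPM in Blank and 179.6 CPM in Col_nHA, a ratio of 1.497 (1.44 to 1.56). Plod2 and Plod3 were thus higher in Col_nHA, while the Plod1 interval spanned 1.

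P4ha1, a catalytic subunit of prolyl 4-hydroxylase, had 74.2 CPM in Blank and 96.4 CPM in Col_nHA, a ratio of 1.30 (1.23 to 1.37). Serpinh1, the collagen chaperone, was counted with 68648 UMIs in Blank and 104596 in Col_nHA. These gave 2236 and 2602 CPM and a ratio of 1.16 (1.15 to 1.18). Both were higher in Col_nHA by less than 1.5-fold.

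**Figure D1:**
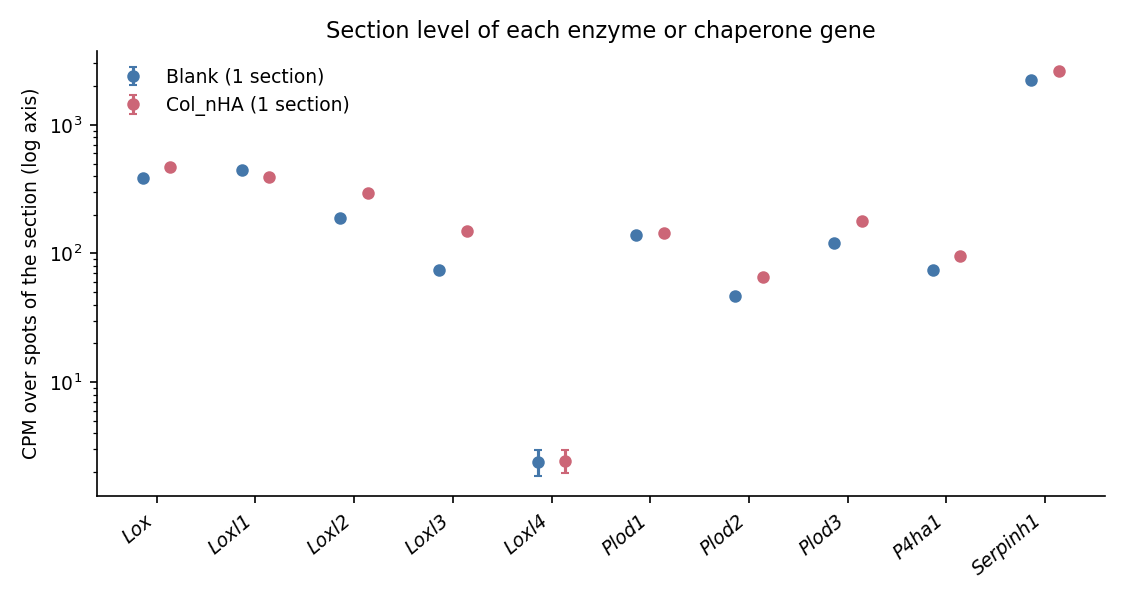
Level of each of the 10 genes in CPM (log axis) over the spots of the Blank and the Col_nHA section. Points are the 2 section values and bars are exact 95% Poisson intervals. Loxl3 goes from 74.4 CPM (Blank) to 149.6 CPM (Col_nHA), and Loxl1 is the only well-counted gene that is lower in Col_nHA.

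Folds were counted for genes that reached 10 CPM in Blank, Col_nHA or both, which 9 of the 10 did and Loxl4 did not. Of these 9, Loxl2 and Loxl3 were at least 1.5-fold higher in Col_nHA, where 5.13% of 9855 genes were. At 2-fold, Loxl3 alone was counted, where 1.83% of genes were. None of the 9 was 1.5-fold lower, where 7.07% of genes were, or 2-fold lower, where 3.4% were. Plod3, with a log2 ratio of 0.58, lay just under the 1.5-fold limit and was past it under several other settings. The median log2 ratio over all 10 genes was 0.33, beside 0.02 over the 9855 genes.

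The count and the median rested partly on spots of Col_nHA alone. Regions 7 and 14, which are described below, hold 0 Blank spots. Without their spots the median log2 ratio over the 10 genes was 0.19, beside 0.003 over all genes with at least 10 CPM. Loxl3 was then the only gene at least 1.5-fold higher, and Loxl2 stood at a log2 ratio of 0.41. Region 9, rich in muscle, has 257 spots in Col_nHA and 6 in Blank. Without it the median was 0.44, beside 0.058 over all genes, and 4 of the 10 genes were at least 1.5-fold higher. Some spots had over 2% of their UMIs in markers of other tissues, such as muscle, skin and fat. These were 19.3% of Blank and 14.04% of Col_nHA spots. Without them the median was 0.40, beside 0.078 over all genes. The share of all genes past 1.5-fold was not taken under these settings.

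**Figure D2:**
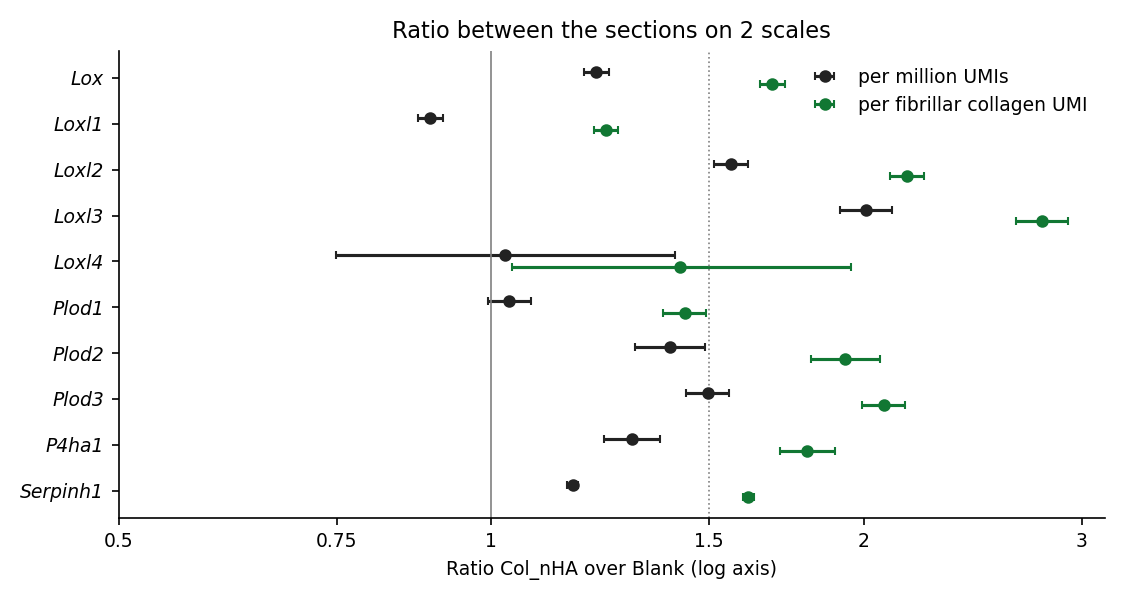
Ratio of Col_nHA over Blank (log axis) for each gene, as CPM (black) and per UMI of the fibrillar collagens (green). Bars are exact 95% conditional binomial intervals, the solid line marks 1 and the dotted line 1.5. The green points are the black ones times 1.39, since the collagen total is lower in Col_nHA, and run from 1.24 for Loxl1 to 2.79 for Loxl3.

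Summed over the whole section, the transcripts of the enzymes' main substrate were lower in Col_nHA, where most of the enzymes were higher. The 11 fibrillar collagen genes together had 82192 CPM in Blank and 59270 CPM in Col_nHA, a ratio of 0.721 (0.720 to 0.722). Col1a1, the main collagen of bone, stood at a ratio of 0.670. Set against fibrillar collagen UMIs, every gene's ratio is multiplied by 1.39, which raises log2 ratios by 0.47. On this scale the median log2 ratio of the 10 genes was 0.80, beside 0.49 for all 9855 genes, of which 90.5% stood above 1. That all 10 genes stood above 1 is therefore read as no result. Per 1000 fibrillar collagen UMIs there were 0.905 Loxl3 UMIs in Blank and 2.52 in Col_nHA, a ratio of 2.79 (2.66 to 2.93). For Loxl1 there were 5.38 in Blank and 6.66 in Col_nHA, a ratio of 1.24 (1.21 to 1.27). Serpinh1 stood at 27.2 in Blank and 43.9 in Col_nHA. These values compare section totals and not places within a section. Over the 19 combinations of region and section described below, levels of the enzymes and of the collagens did not run opposite. The Pearson correlation with the summed fibrillar collagens was positive for all 10 genes, from 0.38 for Loxl3 to 0.81 for Serpinh1. The muscle-rich region was included, and the correlations were not taken without it.

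The sections also differed between spots of like collagen content. Spots of both sections were put in 5 classes of equal size by their share of fibrillar collagen UMIs. The median log2 ratio of the 10 genes in these classes, from the lowest share to the highest, was 0.42, 0.75, 0.79, 0.37 and 0.41. No median over all genes was taken within the classes. Spots of like share can also be of unlike tissue. Fibrillar collagens made up 3.56% of UMIs in region 16 of Blank, led by Ttr, and 1.35% in the muscle-rich region 9 of Col_nHA. Loxl3 was higher in Col_nHA in every class, with ratios from 1.57 to 2.77. Loxl1 lay between 0.886 and 1.08. Its interval was below 1 in class 1 and in class 3, at 0.913 (0.869 to 0.960), and above 1 in class 5, at 1.08 (1.03 to 1.14). Plod2 ratios ran from 1.27 in class 4 to 2.28 in class 3, and Serpinh1 ratios from 1.23 in class 5 to 1.71 in classes 2 and 3. In class 1, the lowest share, 2 genes had intervals below 1, Loxl1 at 0.886 (0.824 to 0.952) and the sparse Loxl4 at 0.401 (0.193 to 0.840).

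The other genes of collagen maturation are given by lists, whose counts are to be read beside the 5.13% of all genes that were 1.5-fold higher and the 7.07% that were lower. Of the 8 other proline hydroxylation genes with at least 10 CPM, 0 were 1.5-fold higher or lower, which is near those shares, and the median log2 ratio was 0.07. P4ha2, the second catalytic subunit, stood at a ratio of 1.17, and P4hb, the shared subunit, at 1.07. P3h3, a prolyl 3-hydroxylase family member, stood at 0.817, and Ppib, the prolyl isomerase that acts with it, at 1.05. Of 12 lysine glycosylation and general chaperone genes, 0 passed 1.5-fold in either direction, again near the share of all genes, with a median of 0.17. The chaperone gene Hspa5 stood at a ratio of 1.38, Calr at 1.30 and Pdia3 at 1.23.

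The 8 procollagen export genes had a median log2 ratio of 0.02 and 0 past 1.5-fold. Creb3l1, a transcription factor for secretory genes in osteoblasts, stood at 1.34, Sec24d, a vesicle coat gene, at 1.005 and Mia2 at 0.858. The 6 propeptide processing genes went both ways, 3 above and 3 below a ratio of 1, each with an interval off 1. Of them 0 were 1.5-fold higher and 1 was lower. The lower gene was Pcolce2, an enhancer of procollagen cleavage, at a ratio of 0.460. Bmp1, the C-propeptide protease, stood at 1.30, Adamts14 at 1.40, Furin at 1.197, Pcolce at 0.830 and Adamts2, an N-propeptide protease, at 0.676.

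The collagens themselves were mixed. Of 10 fibrillar collagen genes with at least 10 CPM, 1 was 1.5-fold higher and 1 lower, with a median log2 ratio of -0.38. The higher gene was Col5a3 at a ratio of 1.64 and the lower was Col11a2 at 0.644, while Col1a2 stood at 0.724. Of 5 basement membrane collagen genes, 0 passed 1.5-fold, with a median of 0.29. Col18a1 stood at 1.47, Col4a2 at 1.23, Col4a1 at 1.18 and Col4a5 at 0.720.

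Elastic fibre and fibril assembly genes went the other way from most of the enzymes. Of 17 such genes, 7 were lower by 1.5-fold or more and 1 was higher, and the median log2 ratio was -0.50. Eln, which encodes elastin, had 1195 CPM in Blank and 393 CPM in Col_nHA, a ratio of 0.329. Mfap4, a microfibril-associated gene, stood at 0.379 and Sparc, a collagen-binding matrix gene, at 0.726. Fn1, which encodes fibronectin, stood at 0.940.

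Hypoxia response genes were among the higher ones. Of 15 with at least 10 CPM, 6 passed 1.5-fold upwards in Col_nHA and 0 downwards, and the median log2 ratio was 0.40. Slc2a1, the glucose transporter GLUT1, stood at a ratio of 2.35, and Egln3, an oxygen sensor, stood at 2.04. The glycolytic genes Pgk1 and Ldha stood at 1.75 and 1.66, and hypoxia response genes also made up 0.312% of UMIs in the muscle-rich region 9 of Col_nHA. Of 12 genes of the TGF-beta response, 0 were 1.5-fold lower, and their median log2 ratio was 0.19. Thbs1 stood at 0.988 and the receptor gene Tgfbr2 at 0.701.

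Spot by spot, more spots of Col_nHA held several of the genes. After every spot was thinned to 2000 UMIs, Loxl3 was found in 12.7% of Blank spots (interval 11.3 to 14.1) and 23.6% of Col_nHA spots (21.9 to 25.3). Loxl2 was found in 28.9% of Blank spots and 40.6% of Col_nHA spots, and Plod3 in 18.9% and 28.5%. Lox was found in 48.6% of Blank spots and 55.8% of Col_nHA spots, Plod2 in 8.85% and 12.95%, and P4ha1 in 13.2% and 16.6%. Plod1 was level, at 23.7% and 23.4%.

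Loxl1 and Serpinh1 were found in slightly fewer spots of Col_nHA. Loxl1 was found in 54.2% of Blank spots and 50.4% of Col_nHA spots, and Serpinh1 in 95.2% and 93.3%, although its CPM was higher. Loxl4 was found in 0.711% and 0.486%. Without thinning the share for Loxl3 was 73.5% of Col_nHA spots, whose depth was greater. The median spot held 3 of the 10 genes in Blank and 4 in Col_nHA after thinning, and 6 and 8 before it.

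A UMI in a spot did not by itself place expression there, because barcodes under the threshold held the same genes. Thinned to 500 UMIs, Lox was found in 15.3% of Blank spots and 15.9% of Blank barcodes under the threshold. For Serpinh1 these shares were 61.9% and 60.9%, and for P4ha1 3.69% and 3.91%. For Loxl3 in Col_nHA the shares were further apart, at 7.57% of spots and 4.07% of barcodes under the threshold. Plod3 in Col_nHA had 8.54% and 5.70%. Whether those barcodes lay under thin tissue or under none was not tested.

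Spots were then clustered by expression into 16 regions, with the 10 genes left out so that their levels did not set the regions. A region carries a number and its leading genes and is not named as a cell type. Most regions lay in 1 section almost alone, so a region may be that library rather than a type of tissue. Levels were taken for the 19 combinations of a region and a section with at least 50 spots.

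Region 7, led by Saa3, Cxcl5 and Arg1, had 336 spots in Col_nHA and 0 in Blank, and held the highest level of 5 of the 10 genes. Lox stood at 837 CPM there, against a median of 408 CPM over the 19 combinations. Loxl2 stood at 608 CPM against a median of 188 CPM, and Loxl3 at 244 CPM against 92.0 CPM. Plod2 stood at 118 CPM against 53.8 CPM, and P4ha1 at 175 CPM against 81.8 CPM. The Loxl3 interval (228 to 260) overlapped that of region 14 (211 to 249), and the P4ha1 interval (162 to 189) overlapped that of region 3 of Col_nHA (127 to 167). In a coarser clustering (resolution 0.3), Loxl2, Loxl3 and P4ha1 were highest in regions led by other genes. Region 7 held 9.27% of the Col_nHA UMIs in spots but 19.1% of the Loxl2 UMIs and 16.8% of the P4ha1 UMIs. Its shares of Plod1 (11.5%) and Serpinh1 (11.4%) were nearer to its share of all UMIs.

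Other genes peaked elsewhere. In region 5 of Col_nHA, led by Cnn1, Mmp9 and Acp5, Serpinh1 was highest at 3717 CPM (interval 3678 to 3757), and its level in region 3 of Col_nHA, 3676 CPM, had an overlapping interval. Plod3 was highest there too, at 246 CPM (236 to 256), and overlapped with its level in region 7, 238 CPM. In region 14, led by Hmox1 and Il1rl1, Lox, Loxl2 and Loxl3 had their second highest levels, at 585, 433 and 230 CPM (229.5 for Loxl3). Loxl1 was highest in Blank, at 819 CPM in region 4, led by Ptgdr, Col6a5 and Penk. Plod1 stood at 209 CPM in region 11 of Col_nHA and 207 CPM in region 4 of Blank, with overlapping intervals. Loxl4 reached 7.60 CPM in region 3 of Col_nHA, from 11 UMIs.

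The lowest levels were in muscle. Region 9 of Col_nHA, led by Mettl21c and Myh4, held the lowest level of each gene but Loxl4, which had 0 UMIs in region 4 of Blank. Lox stood at 34.7 CPM in region 9, Plod2 at 7.43 CPM and Serpinh1 at 425 CPM. The range from the lowest to the highest combination was 24.1-fold for Lox and 4.24-fold for Plod1, the narrowest of the 9 genes with at least 10 CPM.

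**Figure D3:**
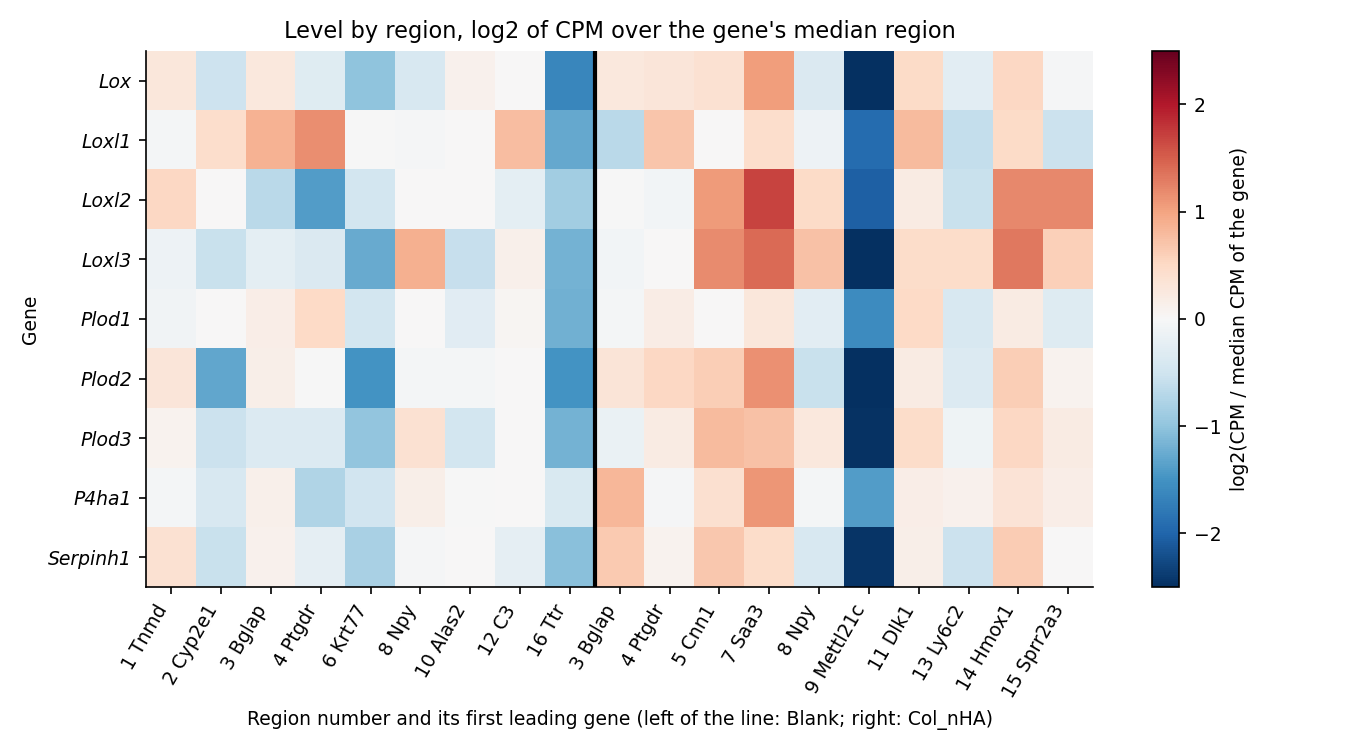
Level of 9 genes in each of the 19 combinations of region and section, as log2 of CPM over the median combination of that gene (colour). Loxl4, with few UMIs, is not drawn, and colours end at the limits of the scale. Region 7 of Col_nHA is red for Lox, Loxl2, Loxl3, Plod2 and P4ha1, and region 9 is blue throughout.

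The width of the range over regions turned on region 9. With it, all 9 genes with at least 10 CPM ranged more widely in Col_nHA. Without it, 7 of the 9 ranged more widely in Blank, such as Loxl1 (5.48-fold in Blank and 2.76-fold in Col_nHA) and Lox (3.80-fold and 2.64-fold). Loxl2 and P4ha1 still ranged more widely in Col_nHA. These Blank ranges kept region 16, led by Ttr and found in Blank alone, which held the lowest Blank levels of Lox (131 CPM) and Loxl1 (149 CPM). The next lowest were 202 CPM of Lox in region 6 and 351 CPM of Loxl1 in region 1. Ranges without region 16 were not taken, so which section ranged more widely among the other regions was not settled. In Blank, Loxl2 lay between 72.0 CPM in region 4 and 269 CPM in region 1, led by Tnmd and Sfrp2, a 3.74-fold range. In Col_nHA without region 9 it lay between 128 and 608 CPM, a 4.75-fold range. P4ha1 lay between 48.3 and 90.6 CPM in Blank (1.87-fold). In Col_nHA without region 9 it lay between 79.2 and 175 CPM (2.21-fold). In region 9 Loxl2 had 45.9 CPM and P4ha1 31.1 CPM. Lox and Serpinh1 were highest in region 1 among Blank regions, at 498 and 3031 CPM. Loxl3 and Plod3 were highest in region 8 of Blank, led by Npy, Mmp12 and Rgs1, at 170.4 and 187 CPM.

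Only regions 3, 4 and 8 had at least 50 spots in both sections. In region 3, led by the osteoblast genes Bglap, Bglap2 and Ifitm5, with 304 Blank and 98 Col_nHA spots, Loxl1 had 660.5 CPM in Blank and 227 CPM in Col_nHA. Its ratio was 0.344 (0.306 to 0.386), the lowest ratio of any member in the shared regions. The median spot of this region had 546 CPM of Loxl1 in Blank and 205 CPM in Col_nHA. After thinning, 64.1% of its Blank spots and 31.6% of its Col_nHA spots held a Loxl1 UMI. Lox differed little there, with 490.5 and 487 CPM.

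P4ha1, Loxl2 and Serpinh1 were higher in region 3 of Col_nHA. P4ha1 had 89.1 CPM in Blank and 145.7 CPM in Col_nHA, a ratio of 1.63 (1.37 to 1.94). Loxl2 stood at a ratio of 1.57 (1.35 to 1.83) and Serpinh1 at 1.47 (1.42 to 1.52), beside 1.16 for Col1a1. The 2 sides of region 3 were not alike in other markers. Ibsp, a gene of mineralizing osteoblasts, had 423 CPM in Blank and 2922 CPM in Col_nHA, summed fibroblast markers had 1819 and 776 CPM, and summed osteoclast markers had 2401 and 5614 CPM. The part of these differences in the ratios of region 3 was not tested.

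In region 4, with 55 Blank and 343 Col_nHA spots, Loxl2 had 72.0 CPM in Blank and 179.9 CPM in Col_nHA, a ratio of 2.499 (1.96 to 3.23). P4ha1 stood at 1.67 (1.24 to 2.30) and Lox at 1.52 (1.35 to 1.71). Plod2 and Plod3 stood at 1.44 and 1.46. Loxl1 was lower in Col_nHA here as well, at a ratio of 0.718 (0.665 to 0.776), and so was Plod1, at 0.803 (0.689 to 0.938).

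Region 8, with 51 Blank and 258 Col_nHA spots, went another way. Serpinh1 had 2271 CPM in Blank and 1760 CPM in Col_nHA (1759.5), a ratio of 0.775 (0.741 to 0.810). Beside it Col1a1 stood at 0.697, Col1a2 at 0.790 and Col3a1 at 0.987. Plod2 stood at 0.708 (0.524 to 0.969) and Plod1 at 0.835 (0.702 to 0.999). Loxl2 was higher, at a ratio of 1.39 (1.198 to 1.61), and the Loxl3 ratio of 0.902 had an interval that spanned 1. The 2 sides of regions 4 and 8 were unlike as well. Summed macrophage markers were 5764 CPM in Blank and 11036 CPM in Col_nHA in region 4, where Spp1 stood at 911 and 10324 CPM. In region 8 summed macrophage markers were 12103 and 17894 CPM, and the part of these differences was not tested. The median log2 ratio of the genes was 0.18 in region 3, 0.53 in region 4 (without Loxl4, which had no ratio there) and -0.14 in region 8. Loxl2 was thus higher in Col_nHA in all 3 shared regions, while Loxl3, first over the whole section, had an interval that spanned 1 in each.

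**Figure D4:**
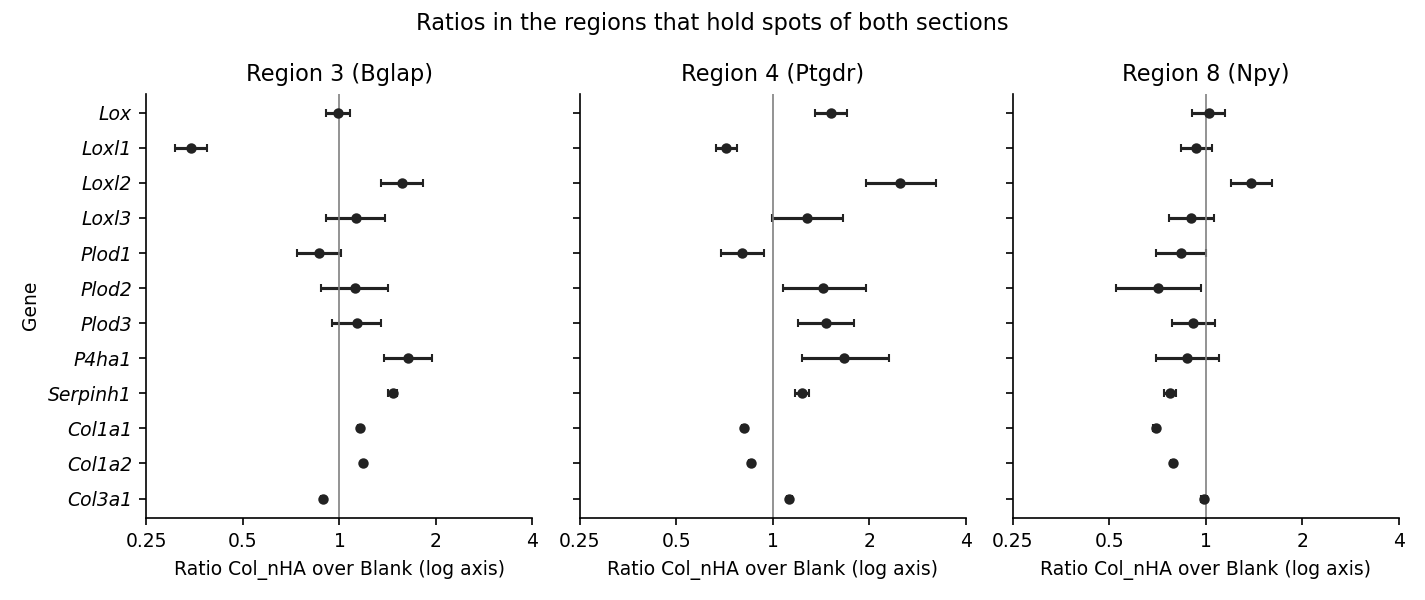
Ratio of Col_nHA over Blank (log axis) within regions 3, 4 and 8 for 9 of the genes and for Col1a1, Col1a2 and Col3a1. Bars are exact 95% conditional binomial intervals and the line marks 1. Loxl2 lies right of the line in all 3 panels, and Loxl1 lies furthest left in region 3, at 0.344.

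Loxl1 is known for its part in elastic fibres, so its levels were set beside those of elastin. Over the 19 combinations, the Pearson correlation of log2(CPM + 10) between Loxl1 and Eln was 0.66, and 0.62 without region 9. With region 9 included, the correlation of Loxl1 with Col1a1 was 0.53 and with the summed fibrillar collagens 0.63. The collagen values were not taken without region 9. Over the same 19 combinations Loxl1 had higher correlations with Arhgap29 (0.94), Plod1 (0.91) and Lox (0.71), so a value of this size was not particular to Eln. The next of the 10 genes for Eln was Plod1 at 0.45, and the lowest was Loxl2 at -0.34. Eln was lower in Col_nHA in each shared region, at ratios of 0.0907 in region 3, 0.591 in region 4 and 0.0973 in region 8. In region 8 the Loxl1 ratio was 0.933 (0.835 to 1.04), so the 2 genes did not keep step there. These combinations share 2 libraries, so the correlations are descriptions.

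Spots with at most 2% of their UMIs in skeletal muscle markers were also put in 5 classes of equal size by their share of hypoxia response UMIs. This division was chosen after the regions were seen. In Col_nHA, Loxl2 stood at 195 CPM in the lowest class and 465 CPM in the highest, a ratio of 2.38 (2.17 to 2.61). Loxl3 stood at 114 CPM in the lowest class and 205 CPM in the highest, a ratio of 1.80 (1.59 to 2.05). P4ha1 stood at 80.4 CPM and 141.9 CPM, a ratio of 1.77 (1.52 to 2.05). Plod2 and Plod3, the other genes with ratios above Lox, stood at 1.55 and 1.39, and Lox at 1.28.

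In Blank the same classes gave another order. P4ha1 had 78.4 CPM in the lowest class and 78.1 CPM in the highest, a ratio of 0.996 (0.810 to 1.21). Lox was lower in the highest class, with 454 CPM in the lowest and 334 CPM in the highest, a ratio of 0.737 (0.669 to 0.809), and Plod2 stood at 0.703 (0.524 to 0.928). Loxl2 stood at 1.13 (0.999 to 1.28), and Loxl3 and Plod3 at 1.32 and 1.31. Loxl1 and Serpinh1 were lower in the highest class in Col_nHA, at ratios of 0.783 and 0.960, and Serpinh1 stood at 0.744 in Blank.

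Region 7 gave 188 of the 711 Col_nHA spots in the highest class. Without region 7, the ratio of the highest to the lowest class in Col_nHA was 2.01 for Loxl2, 1.63 for Loxl3, 1.41 for P4ha1, 1.22 for Plod2 and 1.09 for Lox. Depth moved with the classes too: the highest class had a median of 10539 UMIs a spot in Col_nHA and the lowest had 15255. In Blank these medians were 7133 and 8653.5 UMIs. Summed skin markers made up 0.617% of Col_nHA UMIs in the highest class and 0.0274% in the lowest, and 0.678% and 0.0945% in Blank. Fibrillar collagens made up 5.58% of Col_nHA UMIs in the highest class and 8.46% in the lowest, and 6.31% and 10.2% in Blank. The part of these differences in the ratios of either section was not tested.

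**Figure D5:**
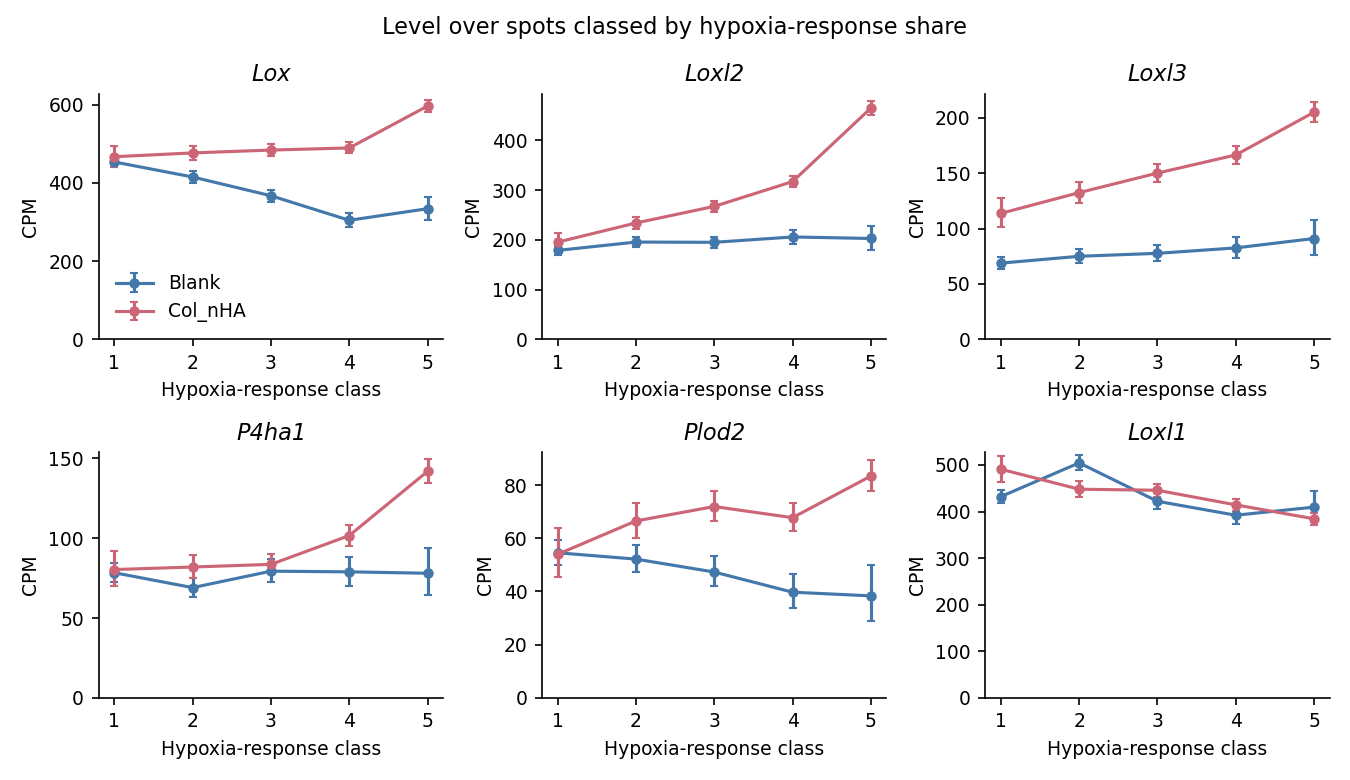
Level in CPM of Lox, Loxl2, Loxl3, P4ha1, Plod2 and Loxl1 over 5 classes of spots from the lowest (1) to the highest (5) share of hypoxia response UMIs. Spots with over 2% of their UMIs in skeletal muscle markers are left out. Bars are exact 95% Poisson intervals. The share is a sum of UMIs in which Ldha and Pgk1 weigh most. In Col_nHA Loxl2 goes from 195 to 465 CPM, and in Blank P4ha1 stays near 78 CPM at both ends.

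The genes with the most similar pattern over the 19 combinations differed by member. For Serpinh1 they were Fkbp10, a collagen prolyl isomerase of the endoplasmic reticulum, with a correlation of 0.99, Kdelr3 and Kdelr2. For Lox they were Kdelr2 at 0.96, P4hb and Rrbp1. For Plod2 they were Cald1, Lox and Tgfb1i1, each at 0.93. Kdelr2 and Kdelr3 encode receptors that return proteins to the endoplasmic reticulum, where Serpinh1 works.

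The other members had other neighbours. Loxl1 was most like Arhgap29, Adgra2 and Zcchc24, at 0.94 to 0.93, and Plod1 was most like Plekhg2, Fam20a and Slc50a1. Loxl2 was most like Csrp1, Adamts14 and Bcat1, at 0.95 to 0.94. Loxl3 was most like Dok1, Ripk3 and Itga5, and Plod3 was most like Tmsb10, Prelid1 and Itgb1, all at 0.96. P4ha1 was most like Ostc at 0.92, a subunit of the oligosaccharyltransferase, then Prrc1 and Pxylp1. Among the 9 genes compared, without Loxl4, Loxl3 and Plod3 (0.95) and Lox and Serpinh1 (0.95) were the closest pairs, and Loxl1 and Loxl2 (0.27) the least alike. All these correlations between members and with neighbour genes include region 9, the lowest combination for each of the 9 genes. They were not taken without it.

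Some of the genes share bases with a neighbour on GRCm38.p6. Loxl3 (chromosome 6, 83034205 to 83052566) overlaps Htra2 by 1301 bases, and Plod3 (chromosome 5, 136987019 to 136996646) overlaps Znhit1 by 941 bases. The sources used here do not say whether counting used the strand, so reads of the shared bases could fall to either gene. Htra2 stood at a ratio of 1.10 and Znhit1 at 1.24, both under the 2.01 of Loxl3 and the 1.497 of Plod3. Loxl2 (chromosome 14, 69608692 to 69695834) overlaps Gm27177, which had 0 UMIs.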

How the data were processed

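The deposited matrices are unnormalized UMI counts of 2 libraries, with 4992 barcodes each, all shared because the array layout is the same. The authors used Space Ranger and mm10, per the submitters' processing notes, and the matrix headers name Cell Ranger 4. The sources used here give no version of Space Ranger. The labels' extraction text describes a droplet single-cell library, while their description and the barcode number go with spatial sections. No image or coordinates were used, and the UMI thresholds stand in for a tissue call, with 265 Blank and 215 Col_nHA barcodes within 10% of them.

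Counts were summed over spots and scaled to CPM, with conditional binomial intervals for ratios, Poisson for CPM and Clopper-Pearson for shares. The members and lists were chosen with earlier results of these data known. Named genes were all 10 members, from each pathway list the 2 most abundant and the 2 furthest from a ratio of 1 at 10 CPM or more, and the 3 genes most correlated with each member, with a mean of at least 10 CPM. From the propeptide processing list all 6 genes at 10 CPM or more were named. Regions were Leiden clusters (log-normalized spots, 2000 variable genes, 30 components, 15 neighbours, resolution 0.6). Software was Python 3.11.15, scanpy 1.11.5, scipy 1.17.1 and R 4.3.3 with edgeR 4.0.16, for TMM factors alone. Of 31053 gene IDs, 30934 matched a name table. The calculation was tested on simulated data before use. A result for 1 gene of the pathway lists is not reported here.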

Additional observations from a re-analysis of the deposited data

How the results depend on the processing

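The median log2 ratio of the 10 members was 0.45 by the mean of per-spot CPM, 0.40 without spots rich in other tissues, and 0.40 (0.405) when choroid plexus spots were left out too. It was 0.19 without regions 7 and 14 and 0.44 without region 9, both chosen after seeing the data. Over all genes with at least 10 CPM, the median was 0.015 in the main setting and 0.078 without spots rich in other tissues. With choroid plexus spots left out too it was 0.073, without regions 7 and 14 it was 0.003, and without region 9 it was 0.058. Members at least 1.5-fold higher were 4 by per-spot CPM, 1 without regions 7 and 14 and 4 without region 9. With 10 classes of collagen share the median over classes was 0.56, against 0.42 with 5. No direction of these summaries reversed. Scaling by TMM or median-of-ratios, leaving ribosomal, haemoglobin and mitochondrial genes out of the total, other UMI thresholds and every barcode gave 2 or 3 members at least 1.5-fold higher. Over 12 settings the log2 ratio ranged from 0.84 to 1.15 for Loxl3, 0.41 to 0.76 for Loxl2 and -0.23 to -0.06 for Loxl1; it was above 0 under 11 of them for Plod1 and Loxl4. Of 110 single ratios under alternatives, 41 moved by more than counting error. Of the 5 members highest in the region led by Saa3, Cxcl5 and Arg1, all 5 were so at resolution 1.0 and Lox and Plod2 at 0.3, where Loxl2 was highest in a region led by Sprr2a3, Loxl3 in one led by Mmp9 and P4ha1 in one led by Ttr. The cause of these changes was not tested. With 1 section a group, spread between animals is unknown. No paired analysis was possible because each group has 1 sample.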
